A study of Mus musculus with 15 samples.

Results

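The genes of the T cell receptor signalling pathway were followed in splenic regulatory T cells (Treg) with an active Notch1 transgene, a deletion of the Notch partner RBPJ, or both. The set is a fixed list of 34 genes named for their place in the pathway. It was chosen with earlier results of these data known. It covers the CD3 chains, coreceptors, proximal kinases, adaptors, second messenger enzymes, the NF-kappaB and NFAT arm, and phosphatases and inhibitors. Of the 34 genes, 32 were measured, among 19752 genes in all. Lck and Nfkb1 had no array feature that names them alone in the probe table and were not analysed here.

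All 4 groups were Treg from the spleen of 6-week-old male mice, and all carried Foxp3EGFPCre, in which the Foxp3 locus drives a green fluorescent protein and the Cre recombinase, so that recombination takes place in cells that express Foxp3. The control group carried Foxp3EGFPCre alone (4 arrays). The N1c group carried R26N1c/N1c in addition, the active intracellular part of Notch1 inserted at the Rosa26 locus (4 arrays). The RBPJdel group carried RBPJ∆/∆, a floxed and deleted allele of the DNA-binding partner of Notch (4 arrays). The N1c_RBPJdel group carried R26N1c/N1c together with RBPJ∆/∆ (3 arrays). N1c and RBPJdel were each set against control, N1c_RBPJdel was set against the other 3 groups, and the interaction asked whether the effect of N1c differed with and without RBPJ. The cells of more than 1 mouse went into each sample, 40000 to 50000 in all. A FACSAria was used to sort N1c_RBPJdel and a MoFlo for the other 3 groups, so that here genotype and sorter cannot be told apart.

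The T cell receptor recognises peptide on MHC molecules and has no enzyme of its own. The CD3 chains carry motifs that the Src family kinases Lck and Fyn phosphorylate, Zap70 docks there and phosphorylates the adaptor Lat, and Lat with Lcp2 assembles the complex that activates phospholipase C gamma. The lipid and calcium signals that follow open the Ras, protein kinase C and NF-kappaB, and calcineurin and NFAT branches. Treg need this signal for their suppressive state, and several members (Csk, Ptpn22, Cblb, the diacylglycerol kinases) restrain it. In canonical Notch signalling the intracellular domain enters the nucleus and binds RBPJ on DNA.

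Values are array intensities on a linear scale, given for each array in replicate order. Group levels are geometric means, and differences are in log2 units with the standard error (SE) of a limma model over all 15 arrays. Adjusted p-values are Benjamini-Hochberg values over all 19752 genes, and a gene was called below 0.05. Rbpj fell by 0.90 ± 0.12 in RBPJdel (adjusted p = 0.00213) and stood at -1.25 ± 0.13 in N1c_RBPJdel against control (adjusted p = 0.000124), while Notch1 and Foxp3 were not called in any comparison. The value of Notch1 is 1 summary over its probes and does not single out the part that R26N1c/N1c encodes. Arrays 1 and 3 of N1c_RBPJdel had a narrower range than the others: the 75th percentile of intensity was 330.4 and 325, against 366 on array 2 and 340 to 385 over the other groups, with medians of 107.1 to 117.2 on all 15 arrays. Among the 4333 genes as bright as the dimmest member, a background set chosen after the data were seen, the median difference of N1c_RBPJdel from control was -0.17, against 0.02 over all genes. All 32 measured members lie in this brighter range, with the dimmest, Sos1, at percentile 78.1 of all genes. The next dimmest, Nfatc2, was at percentile 89.3, so the set of bright genes reaches below most members and is not matched to their brightness. The values of these bright genes, and those after quantile normalization of the arrays, stand beside the members below. The part of the narrower range in the results was not tested.

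Among markers of other cells, 2 of 7 for B cells (Cd79a and Ms4a1) were called higher in N1c_RBPJdel than in control. So were 1 of 5 for erythroid cells (Car1) and 1 of 7 for neutrophils (S100a9), where 3.77% of all genes were called higher. None of 8 myeloid, 6 dendritic cell, 6 NK cell, 2 CD8 or 5 platelet markers was called in either direction, where 8.9% of all genes were. The summed erythroid markers ranged from 452 to 1233 on the N1c_RBPJdel arrays and from 329 to 345 in control. Those of B cells ranged from 671 to 989.7 and from 599 to 674, and those of neutrophils from 500.2 to 548 and from 374 to 424. The 5 T cell markers (the CD3 chains and Cd4, all members themselves) summed to 13928 to 16346 in N1c_RBPJdel and 14037 to 16000.1 in control, ranges that overlap. The 6 Treg markers (Foxp3, Il2ra, Ctla4, Ikzf2, Tnfrsf18 and Ikzf4) summed to 16699 to 18370 in N1c_RBPJdel and 18397 to 20070 in control, ranges that do not overlap. Their sums were 17067 to 18745 in N1c and 15992 to 20723 in RBPJdel. None of the 6 was called in N1c_RBPJdel against control. The part of other cells in the results was not tested, and in pooled sorted cells fewer cells of a type and less RNA per cell cannot be told apart.

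Because RBPJ binds the core TGGGAA, the 250 bases before the start of the member genes were read (RefSeq, build GRCm38.p6). Starts of 27 member genes matched, with 38 promoters. Cd28 had no entry. Shown are Prkcq, called lower in N1c_RBPJdel against control in all 25 alternatives, and Themis, called lower there against N1c in all 25. Sos1, which was called against both control and N1c, is shown too. The others are 2 of the kinase and adaptor step, Zap70 and Lat, whose promoters hold the longer motif GTGGGAA. The longer motif is in capitals, on either strand, with TTCCCAC as its reverse. The sequences run 5′ to 3′ along the gene: Themis at chr10:28668110-28668359 on the plus strand (the first of 2 starts), Prkcq at chr2:11172132-11172381 on the plus strand, Sos1 at chr17:80480454-80480703 on the minus strand, Lat at chr7:126369569-126369818 on the minus strand and Zap70 at chr1:36761548-36761797 on the plus strand (1 of 3 starts).
Themis: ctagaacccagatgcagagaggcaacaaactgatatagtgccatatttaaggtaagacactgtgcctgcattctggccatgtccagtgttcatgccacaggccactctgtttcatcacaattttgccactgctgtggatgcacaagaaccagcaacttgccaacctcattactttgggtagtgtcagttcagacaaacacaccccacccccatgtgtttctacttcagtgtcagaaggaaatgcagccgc
Prkcq: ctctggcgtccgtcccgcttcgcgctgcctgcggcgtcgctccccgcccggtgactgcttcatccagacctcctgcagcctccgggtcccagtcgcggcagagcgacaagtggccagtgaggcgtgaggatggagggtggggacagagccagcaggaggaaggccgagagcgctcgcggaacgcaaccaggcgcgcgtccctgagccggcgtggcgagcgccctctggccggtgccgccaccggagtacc
Sos1: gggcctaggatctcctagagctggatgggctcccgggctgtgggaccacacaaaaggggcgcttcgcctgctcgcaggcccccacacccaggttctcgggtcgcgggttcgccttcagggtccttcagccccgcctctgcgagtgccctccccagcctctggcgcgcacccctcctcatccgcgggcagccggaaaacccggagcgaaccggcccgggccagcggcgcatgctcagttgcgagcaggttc
Lat: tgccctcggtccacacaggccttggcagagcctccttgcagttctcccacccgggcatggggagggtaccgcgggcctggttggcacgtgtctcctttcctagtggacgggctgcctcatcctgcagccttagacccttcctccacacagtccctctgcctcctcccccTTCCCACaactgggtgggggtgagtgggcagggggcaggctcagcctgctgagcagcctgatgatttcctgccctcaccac
Zap70: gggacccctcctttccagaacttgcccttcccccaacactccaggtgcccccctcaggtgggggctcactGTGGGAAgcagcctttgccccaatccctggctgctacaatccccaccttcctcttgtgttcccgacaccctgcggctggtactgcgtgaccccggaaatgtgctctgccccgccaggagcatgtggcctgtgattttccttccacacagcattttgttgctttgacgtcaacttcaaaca
The motif in Lat starts 81 bases before the gene's start and that in Zap70 180 bases before it, and neither motif matched in the windows of Themis, Prkcq or Sos1. TGGGAA or TTCCCA occurred in 12 of 38 member promoters (31.6%), in 11 genes, against 21.6% of 32851 promoters of the same length. GTGGGAA or TTCCCAC occurred in 3 (7.89%), those of Cd3g, Lat and Zap70, against 5.42%. The shorter motif lies within the longer and overlaps the core that Ikaros and ETS family factors bind, so that a match describes the letters and not the binding of a factor.

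**Figure D1:**
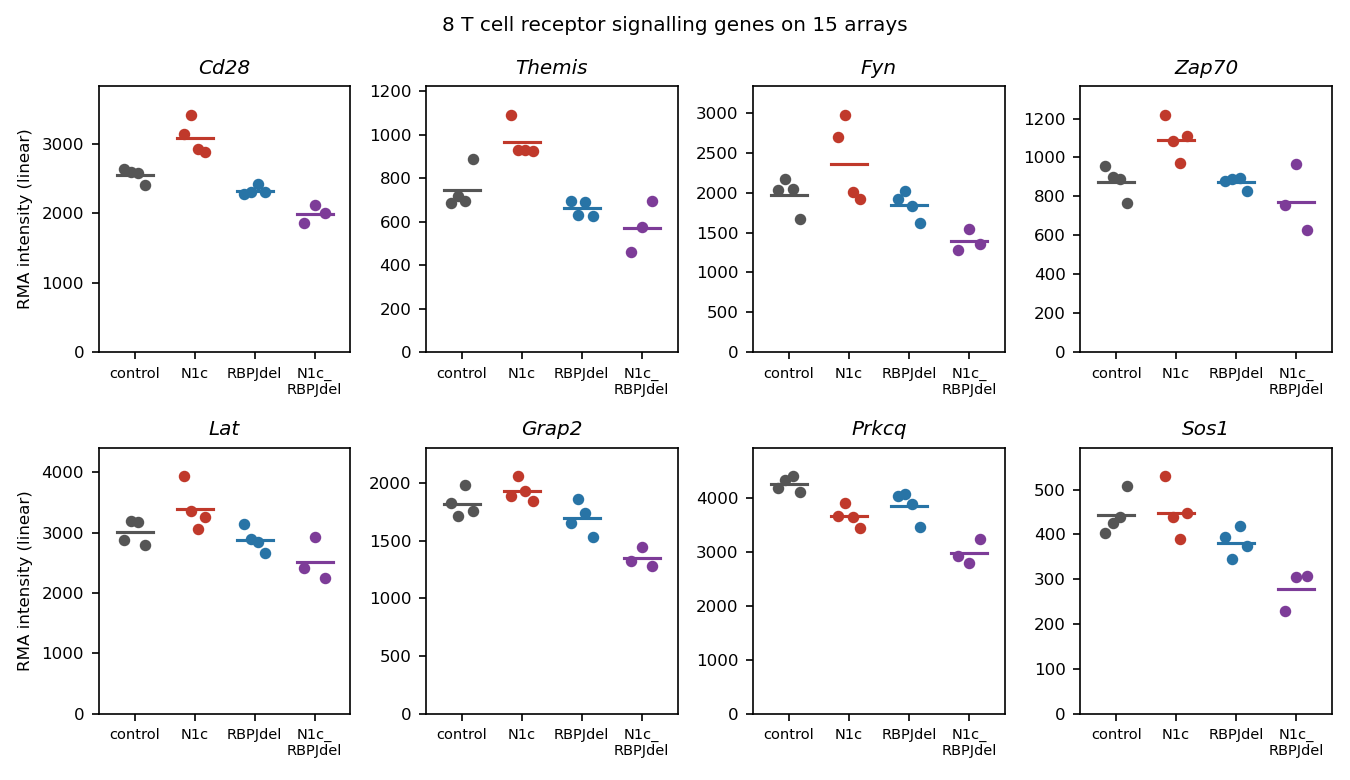
Intensity (RMA, linear axis from 0) of 8 members on each of the 15 arrays, with 1 point per array, the groups side by side and a bar at the geometric mean of each group. The N1c_RBPJdel arrays lie below all control arrays for Cd28, Fyn, Grap2, Prkcq and Sos1 and overlap them for Themis, Zap70 and Lat.

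All calls among the members were in comparisons with N1c_RBPJdel, and all were lower there. Against control, 9 of 32 members fell and none rose, a share of 28.1% where 5.12% of all genes and 15.3% of the bright genes were called lower. Against N1c, 7 of 32 fell and none rose (21.9%), where 4.65% of all genes and 11.6% of the bright genes were called lower. Against RBPJdel, 1 of 32 fell (3.12%; background 0.967% of all genes, 2.86% of bright genes). The median difference over the 32 members was -0.28 against control, -0.29 against N1c and -0.22 against RBPJdel. Over all genes these medians were 0.02, 0.02 and -0.01, and over the bright genes -0.17, -0.15 and -0.14. The 3 comparisons share the N1c_RBPJdel arrays. After quantile normalization the members called lower were 2 against control (Prkcq and Sos1; background 3.06%, and 5.86% of bright genes), 5 against N1c (Cd28, Fyn, Grap2, Themis and Sos1; background 3.74%, and 5.05% of bright genes) and 0 against RBPJdel (background 1.05%). The medians of the members were then -0.16, -0.16 and -0.11, and those of the bright genes -0.04, -0.02 and -0.03.

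N1c_RBPJdel had the lowest mean of the 4 groups in 23 of 32 members (18 after quantile normalization), and N1c had the highest in 15 (13 after). In 10 members N1c was highest and N1c_RBPJdel lowest at once. The order of the groups was not counted over all genes or the bright genes, and so these counts describe the members alone. The difference against control was below 0 in 27 of 32 members (72.9% of bright genes), against N1c in 28 (73.3%) and against RBPJdel in 29 (72.8%). After quantile normalization these counts were 22, 22 and 23 of 32, and the bright genes were not counted in this way. In 9 members every N1c_RBPJdel array was below every control array (9.57% of all genes, 25.3% of bright genes), in 12 below every N1c array (8.42% and 19.9%) and in 9 below every RBPJdel array (8.45% and 20.4%).

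**Figure D2:**
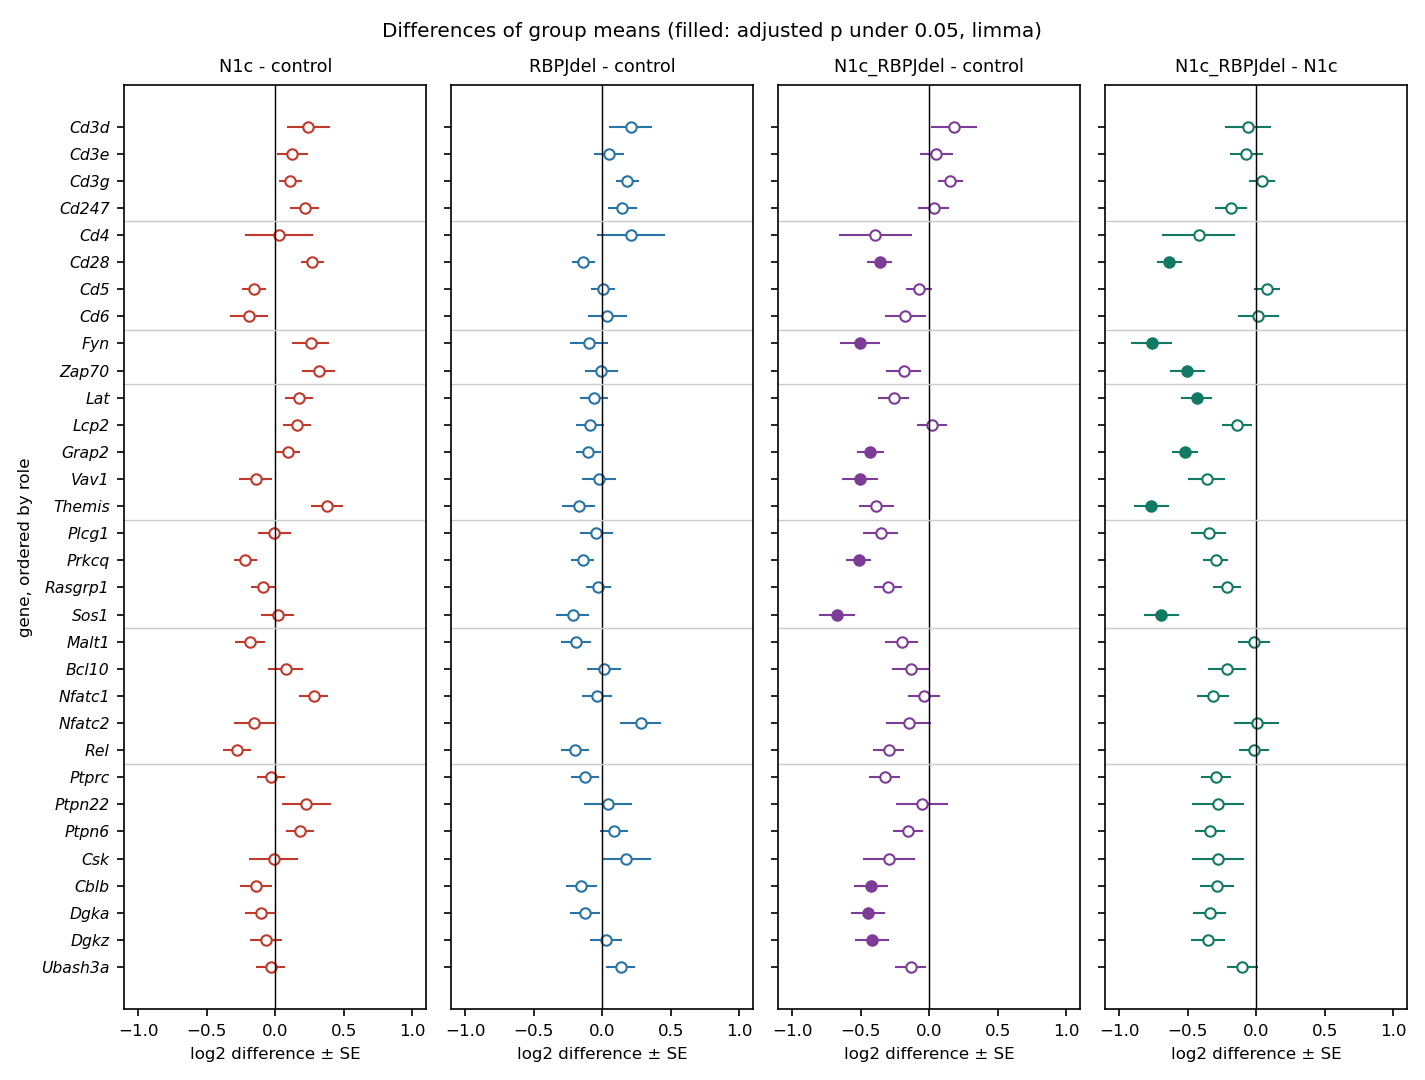
Log2 difference ± SE (x axis) of each of the 32 measured members (y axis, ordered by role with lines between roles) in 4 comparisons, 1 panel each, with filled points for a limma adjusted p below 0.05. The filled points, 9 against control and 7 against N1c, all lie below 0 in the panels of N1c_RBPJdel, and the 4 CD3 chains have none.

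The CD3 chains, which carry the signalling motifs of the receptor, were not called in any comparison. Cd3e measured 5732, 5709, 4707 and 5946 on the control arrays, 6314, 5711, 5393 and 6664 in N1c, 6323, 5686, 5919.6 and 4939 in RBPJdel, and 5552, 6518 and 5123 in N1c_RBPJdel. Cd3g measured 4739, 4212, 4593 and 5119 in control, 5184, 5231, 4752 and 4955.5 in N1c, 5702, 4881, 5508 and 5094 in RBPJdel, and 5212, 5219 and 5104 in N1c_RBPJdel. The groups overlapped for both genes. Cd3d had group means of 1021, 1207, 1179.7 and 1158 and Cd247, the zeta chain, of 924, 1074, 1023 and 945, in the order control, N1c, RBPJdel and N1c_RBPJdel. The difference of N1c_RBPJdel from control had 95% confidence intervals of -0.17 to 0.54 for Cd3d, -0.20 to 0.31 for Cd3e, -0.04 to 0.35 for Cd3g and -0.21 to 0.27 for Cd247, so that a fall of the size seen in Prkcq lay outside all 4 intervals. No test compared the chains with the other roles.

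Of the 4 coreceptors and costimulators, Cd28 fell in N1c_RBPJdel, against control and against N1c. Cd28, the receptor for CD80 and CD86 that gives the costimulatory signal, measured 2639, 2604, 2589 and 2412 in control, 3145, 3427, 2932 and 2882 in N1c, 2275, 2315, 2423 and 2303 in RBPJdel, and 1866, 2116 and 2005 in N1c_RBPJdel. The N1c arrays were all above and the N1c_RBPJdel arrays all below every array of control, and Cd28 had the smallest residual spread of the members (SD 0.08 log2 units). The fall was 0.63 ± 0.09 against N1c, a change of -35.5% (limma adjusted p = 0.000341), and the difference from control was -0.36 ± 0.09 (limma adjusted p = 0.0221). The call against N1c held in all 25 alternatives and that against control was lost after quantile normalization (adjusted p = 0.0831). In N1c Cd28 was higher than in control by 0.27 ± 0.08 without passing (adjusted p = 0.159).

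Cd4, the coreceptor that binds MHC class II, varied most between arrays of a group (residual SD 0.42). It measured 3523, 3435, 2755 and 1619 in control, 3813, 3521, 2644 and 1631 in N1c, 3311, 3089, 3297 and 2877 in RBPJdel, and 2147, 2454 and 1672 in N1c_RBPJdel. The lowest control and N1c values are both from the array numbered 5. The difference of N1c_RBPJdel from control was -0.39 ± 0.27 (adjusted p = 0.366), and without both arrays numbered 5 it was -0.64 and passed (adjusted p = 0.0172). Without them Cd4 also passed against N1c (-0.67, adjusted p = 0.0135) and RBPJdel (-0.60, adjusted p = 0.0327). Cd5 and Cd6, which dampen the signal, had group means of 3342 to 3733 and of 1032 to 1209 and were not called.

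Both measured proximal kinases fell in N1c_RBPJdel against N1c. Fyn, a Src family kinase, measured 2036, 2167, 2051 and 1671 in control, 2696, 2981, 2009 and 1917 in N1c, 1927, 2025, 1831 and 1615 in RBPJdel, and 1278, 1549 and 1358 in N1c_RBPJdel. All 3 N1c_RBPJdel arrays were below every other array, while N1c arrays 1 and 2 were the highest of all. Fyn fell by 0.76 ± 0.15 against N1c (limma adjusted p = 0.00459) and was lower than control (-0.50 ± 0.15, adjusted p = 0.0426), a call lost after quantile normalization (adjusted p = 0.101). Zap70, which docks on phosphorylated CD3, measured 957, 900.4, 891 and 767 in control, 1221, 1083, 969.7 and 1110.0 in N1c, 878, 890.3, 894 and 828 in RBPJdel, and 757, 968 and 625 in N1c_RBPJdel. Array 2 of N1c_RBPJdel was above every control array, and the 3 arrays were below the N1c arrays by a narrow margin. Zap70 fell by 0.50 ± 0.13 against N1c (adjusted p = 0.0221), a call lost after quantile normalization (adjusted p = 0.0583), and was -0.18 ± 0.13 against control (adjusted p = 0.379).

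Of the 5 adaptors, Grap2 and Vav1 fell in N1c_RBPJdel against control and Grap2, Themis and Lat against N1c. Themis, a T cell protein that tunes receptor signals through the phosphatase Ptpn6, measured 688, 719.9, 695 and 889 in control, 1093, 930.0, 928 and 925 in N1c, 695, 633, 691 and 627 in RBPJdel, and 462, 575 and 696 in N1c_RBPJdel. Each N1c array was above all arrays of the other groups, and array 3 of N1c_RBPJdel was within the control range. Themis fell by 0.76 ± 0.13 in N1c_RBPJdel against N1c, a change of -41.1% (limma adjusted p = 0.00163), in all 25 alternatives. Against control it was -0.39 ± 0.13 (adjusted p = 0.0713).

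Grap2, which links Lat to Lcp2, measured 1825, 1713, 1982 and 1756 in control, 1893, 2063, 1933 and 1849.6 in N1c, 1659, 1863, 1743 and 1530.0 in RBPJdel, and 1328, 1449 and 1278 in N1c_RBPJdel. The 3 N1c_RBPJdel arrays were below every other array. Grap2 fell by 0.52 ± 0.10 against N1c (limma adjusted p = 0.00305) and was lower than control (-0.43 ± 0.10, adjusted p = 0.0131; 0.0544 after quantile normalization), and was -0.33 ± 0.10 against RBPJdel (adjusted p = 0.0722).

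Vav1, an exchange factor for Rac that also acts as an adaptor, measured 1369, 1318, 1297 and 961 in control and 759.8, 1019.5 and 829.5 in N1c_RBPJdel, and the groups overlapped through control array 5. It fell by 0.50 ± 0.13 against control (limma adjusted p = 0.0282; 0.0733 after quantile normalization). Lat, the scaffold that Zap70 phosphorylates, measured 3937, 3363, 3055 and 3263 in N1c and 2409.9, 2923 and 2249 in N1c_RBPJdel, with no overlap. The control arrays, at 2869, 3199, 3176 and 2798, overlapped both groups. Lat fell by 0.43 ± 0.11 in N1c_RBPJdel against N1c (limma adjusted p = 0.0242), a call lost after quantile normalization (adjusted p = 0.154). Lcp2, the partner of Lat known as SLP-76, had group means of 4095, 4579.7, 3857 and 4156, again with control first and N1c_RBPJdel last, and its difference from control was 0.02 ± 0.11 in N1c_RBPJdel (adjusted p = 0.922).

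Of the 4 second messenger enzymes, Prkcq and Sos1 fell in N1c_RBPJdel against control and Sos1 against N1c. Prkcq, the protein kinase C theta that leads to NF-kappaB, measured 4185, 4335, 4407 and 4103 in control, 3656, 3902, 3652 and 3450.2 in N1c, 4034, 4082, 3883 and 3465 in RBPJdel, and 2918, 2801 and 3246 in N1c_RBPJdel. The control arrays were all above, and the N1c_RBPJdel arrays all below, every array of the other 3 groups. The fall against control was 0.51 ± 0.09, a change of -29.9% (limma adjusted p = 0.00506), and held in all 25 alternatives with a highest adjusted p of 0.0416. Against RBPJdel it was the one call among the members (-0.37 ± 0.09, adjusted p = 0.0431; 0.370 after quantile normalization). N1c and RBPJdel alone were below control without passing, by -0.22 ± 0.09 (adjusted p = 0.388) and -0.14 ± 0.09 (adjusted p = 0.821).

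Sos1, an exchange factor that loads Ras with GTP, measured 404, 427, 439 and 509 in control, 530.5, 438, 390.4 and 447 in N1c, 393, 345, 419 and 373 in RBPJdel, and 228, 306 and 308 in N1c_RBPJdel. The N1c_RBPJdel arrays were below all others, with array 1 the lowest. Sos1 fell by 0.67 ± 0.13 against control (limma adjusted p = 0.00711) and was lower than N1c (-0.69 ± 0.13, adjusted p = 0.00357), and both calls held after quantile normalization (adjusted p = 0.0157 and 0.00816). With array 2 alone for N1c_RBPJdel both calls were lost (adjusted p = 0.0905 and 0.0781). Plcg1, the phospholipase C gamma that makes both messengers, was at 1118, 1113, 1086 and 875 in the 4 groups and Rasgrp1, the diacylglycerol-gated Ras exchange factor, at 3953, 3720.2, 3879 and 3209.8. Their differences from control in N1c_RBPJdel were -0.35 ± 0.13 (adjusted p = 0.0936) and -0.30 ± 0.10 (adjusted p = 0.0683). Without control array 5, Plcg1 passed (-0.46, adjusted p = 0.0264).

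None of the 5 measured members of the NF-kappaB and NFAT arm was called in any comparison. Rel, the c-Rel subunit that Treg development needs, measured 2685, 2769.6, 2331 and 2904 in control, 2136, 2282, 2033 and 2329 in N1c, 2466, 2307, 2601 and 1965 in RBPJdel, and 2173, 2019 and 2331 in N1c_RBPJdel. All N1c arrays were below all control arrays, if only just at the nearest pair, and the difference of -0.28 ± 0.10 did not pass (adjusted p = 0.308). Malt1 and Bcl10, which relay protein kinase C theta to NF-kappaB, had means of 798 to 917 and 775 to 898. Nfatc1 was 1201 in control and 1459.8 in N1c, a difference of 0.28 ± 0.11 with no overlap (adjusted p = 0.360), and 1172 in N1c_RBPJdel. Nfatc2 was highest in RBPJdel (874) and lay at 646 to 719 in the other groups.

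All 8 phosphatases and inhibitors had lower means in N1c_RBPJdel than in control, N1c and RBPJdel on the deposited scale (6, 7 and 7 of 8 after quantile normalization), and Cblb, Dgka and Dgkz fell against control. Cblb, a ubiquitin ligase that sets the threshold for activation without costimulation, measured 2217, 2464, 2131 and 2656 in control, 2534, 1872, 1875 and 2356 in N1c, 2310.2, 2128, 2218 and 1854 in RBPJdel, and 1673, 1836 and 1771 in N1c_RBPJdel. The N1c_RBPJdel arrays were below every other array, and the fall against control was 0.42 ± 0.12 (limma adjusted p = 0.0418; 0.145 after quantile normalization). Against N1c and RBPJdel Cblb was -0.28 ± 0.12 and -0.27 ± 0.12 without passing (adjusted p = 0.154 and 0.219).

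Dgka and Dgkz consume diacylglycerol, the lipid that Prkcq and Rasgrp1 respond to. Dgka measured 6697, 7393, 7147 and 6133 in control and 4985, 5513 and 4575 in N1c_RBPJdel, with no overlap. Its fall against control was 0.45 ± 0.12 (limma adjusted p = 0.0317; 0.117 after quantile normalization). Dgkz, read from the brighter of 2 features, measured 1224, 1246, 1227 and 936 in control and 786, 1041 and 786 in N1c_RBPJdel, and overlapped through control array 5. Its fall of 0.41 ± 0.12 (adjusted p = 0.0454; 0.134 after quantile normalization) was lost when both features were averaged (-0.09, adjusted p = 0.591).

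Csk, which phosphorylates the inhibitory site of Src family kinases, measured 1425, 1467, 1459 and 845 in control, 1493, 1337, 1217 and 1026 in N1c, 1369.7, 1525, 1339 and 1502 in RBPJdel, and 978, 1361 and 834 in N1c_RBPJdel. Array 5 of control was at the level of the lowest N1c_RBPJdel array, and Csk was not called (-0.29 ± 0.19 against control, adjusted p = 0.345). Ptprc, the CD45 phosphatase that activates Src family kinases, had a mean of 4589 in control and 3663 in N1c_RBPJdel with no overlap, a difference of -0.33 ± 0.11 that did not pass (adjusted p = 0.0736). Ptpn22, Ptpn6 and Ubash3a, which dephosphorylate the proximal kinases, were not called, with differences from control of -0.05, -0.15 and -0.13 on the deposited scale, of which those of Ptpn22 (0.09) and Ubash3a (0.01) changed sign after quantile normalization.

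**Figure D3:**
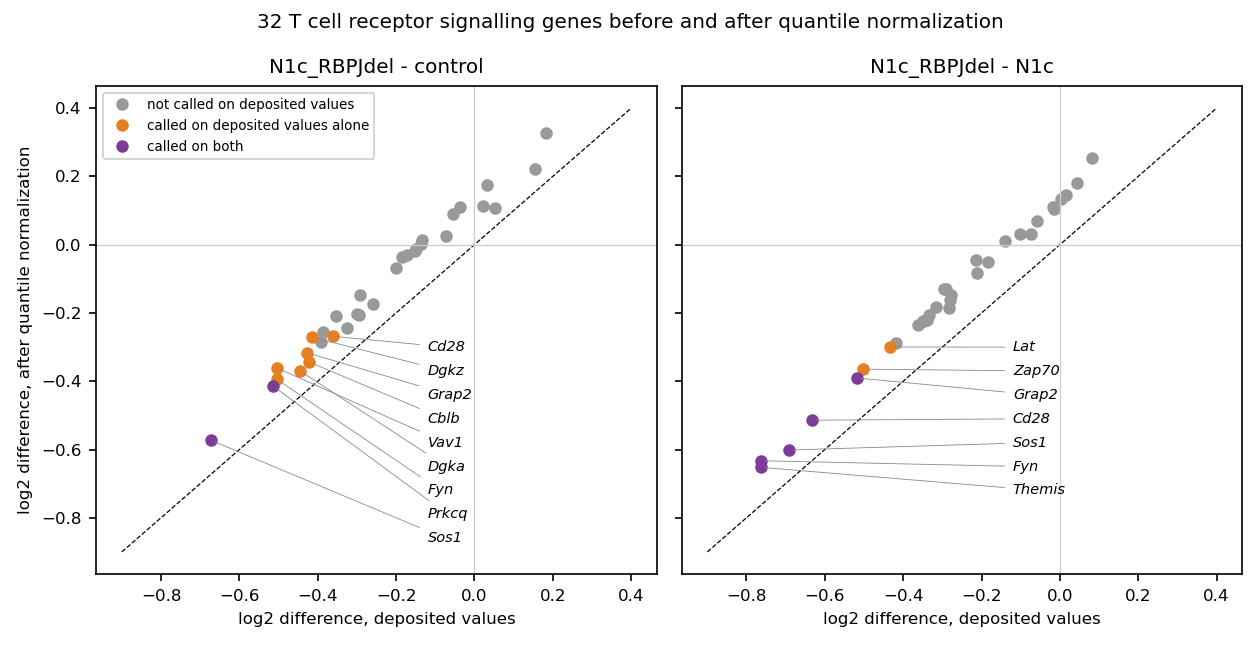
Log2 difference of each member in N1c_RBPJdel against control and against N1c as deposited (x axis) and after quantile normalization of the arrays (y axis), with a dashed line of equal values. The points lie above the line, and the members called on both scales are Prkcq and Sos1 against control and Cd28, Fyn, Grap2, Themis and Sos1 against N1c.

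N1c alone, with RBPJ intact, did not change a member past the threshold: 0 of 32 were called, where 1.65% of all genes were. With array weights 2 members were called (Themis, limma adjusted p = 0.00593, and Cd28, limma adjusted p = 0.0153), beside 733 of all genes. Without the weights, unadjusted p was below 0.05 for 6 members, among 1621 of all genes (8.21%). These 6 were Themis (0.38 ± 0.12), Zap70 (0.32 ± 0.12), Nfatc1 (0.28 ± 0.11) and Cd28 (0.27 ± 0.08) above control, and Rel (-0.28 ± 0.10) and Prkcq (-0.22 ± 0.09) below it, with adjusted p of 0.159 to 0.388. The first 4 did not overlap with control and were higher (2.9% of all genes did so). Rel, Prkcq and Cd5 did not overlap and were lower (2.83%). The median over the members was 0.02, and -0.01 over all genes.

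RBPJdel differed least from control. None of 32 members was called (0.111% of all genes were), in any alternative, and 1 had an unadjusted p below 0.05, where 6.74% of all genes did (Cd3g, 0.18 ± 0.09, adjusted p = 0.729). Prkcq was the one member with no overlap (lower; 3.08% of all genes). The median over the members was -0.03, and 0.03 over all genes.

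The interaction, the N1c effect with RBPJ deleted minus that with RBPJ intact, called 0 of 32 members (0.84% of all genes). With array weights it called 2, beside 257 of all genes. Without the weights, the interaction had an unadjusted p below 0.05 for 10 members, where 12.9% of all genes did. Its lowest adjusted p was that of Cd28 (-0.50 ± 0.12, adjusted p = 0.0706), followed by Themis (-0.59 ± 0.18, 0.143), Fyn (-0.66 ± 0.20, 0.153), Grap2 (-0.42 ± 0.13, 0.161) and Zap70 (-0.50 ± 0.18, 0.225). Without N1c_RBPJdel array 2, Cd28 and Zap70 passed (both adjusted p = 0.0336), and without its array 3, Themis (0.0495). Of all genes, 478 and 168 were called in these fits, in this order, and 166 with all arrays. The interaction was below 0 in 29 of 32 members (71% of bright genes) with a median of -0.28, and in 21 with a median of -0.18 after quantile normalization. The bright genes had medians of -0.12 and -0.02.

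Array 2 of N1c_RBPJdel, the one with the wider range, was the highest of its group for 25 of 32 members. With this array left out, the members called, all lower, were 12 against control, 13 against N1c and 8 against RBPJdel, while the share of all genes called lower rose to 8.08%, 7.17% and 4.99%. With array 1 left out the members called were 2, 5 and 0, and the shares of all genes 1.38%, 2.13% and 0.0759%.

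**Figure D4:**
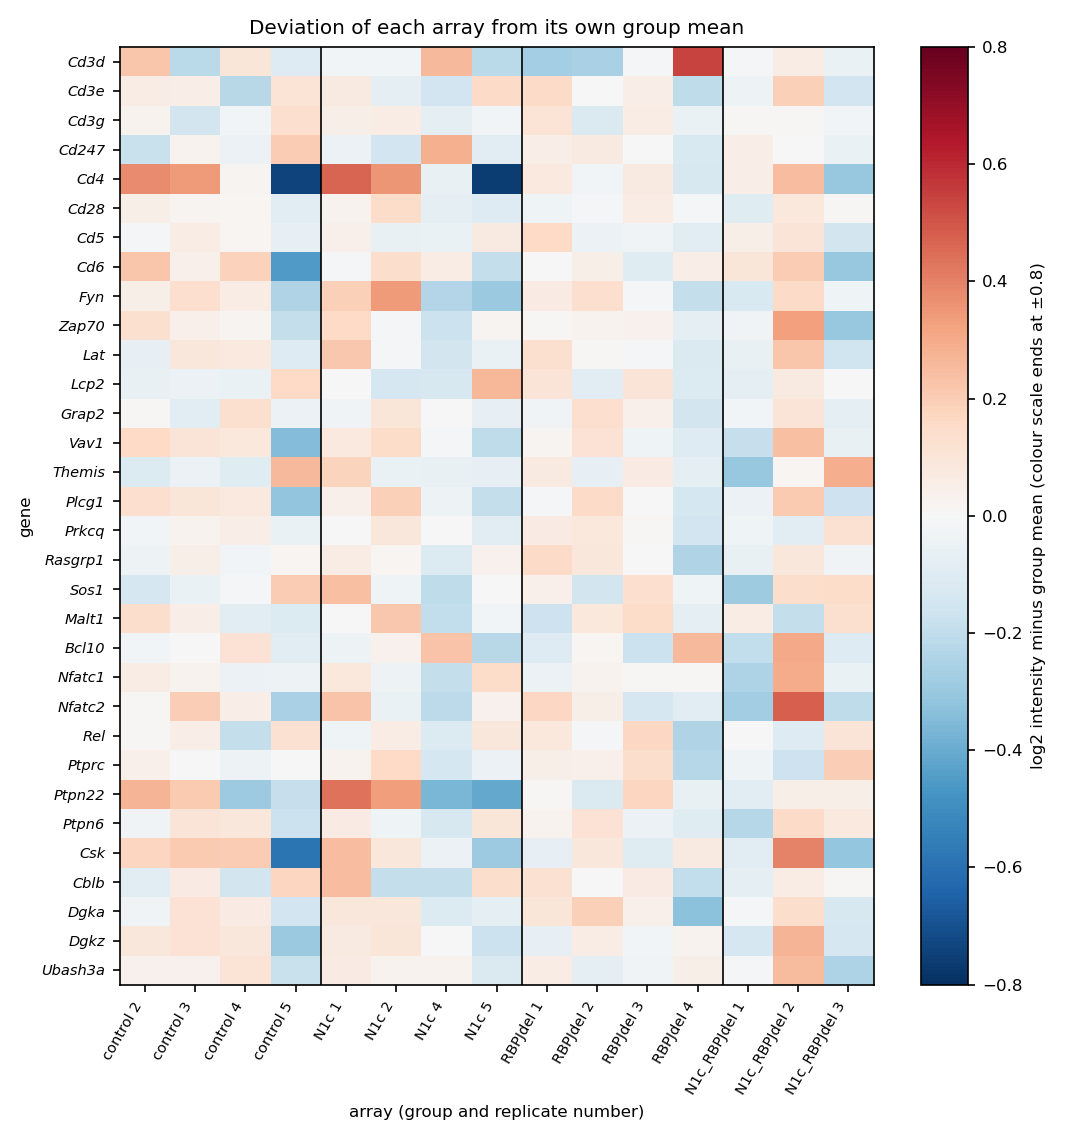
Deviation of each member (y axis) from its group mean in log2 units, as colour from blue (lower) to red (higher), on each of the 15 arrays (x axis, by group). Control array 5 and N1c array 5 have the largest root mean square deviations, 0.250 and 0.207, and N1c_RBPJdel array 2 lies above its group for most members.

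N1c array 4 and RBPJdel array 4 were below their group means in 26 and 25 of 32 members, and control array 5 and N1c array 5 in 22 each. The arrays numbered 5 in control and N1c had the largest root mean square deviations of the members (0.250 and 0.207). In both, 17 of 32 members were below the mean of the other arrays of their group, 5 were above it in both (Cd3e, Lcp2, Rasgrp1, Rel and Cblb) and 10 went opposite ways. Cd4 was lower by the most, at -0.99 in control and -1.01 in N1c, followed in control by Csk (-0.78, and -0.39 in N1c) and Cd6 (-0.60 and -0.25). With both arrays left out, the members called lower in N1c_RBPJdel were 11 against control, 12 against N1c and 5 against RBPJdel, beside 8.03%, 7.17% and 2.72% of all genes.

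Other genes of the pathway were counted from a list of 83, of which 73 were measured. In N1c_RBPJdel 14 of 73 fell against control and none rose (3 after quantile normalization), and against N1c 12 fell and 1 rose (6 and 1 after). Of all genes, 5.12% and 4.65% were called lower in these comparisons (3.06% and 3.74% after quantile normalization). Of the bright genes, 15.3% and 11.6% were (5.86% and 5.05% after), and the list was not held to their brightness. The list's medians were -0.23 in both comparisons and -0.09 and -0.11 after quantile normalization. Against control the smallest p-values were those of Pag1, the adaptor that recruits Csk to the membrane (-0.95 ± 0.21, limma adjusted p = 0.0119), the MAP kinase phosphatase Dusp4 (-0.73 ± 0.16, 0.0142), the Ras GTPase activator Rasa2 (-0.56 ± 0.13, 0.0170) and the phosphatase Ptpn11 (-0.53 ± 0.12, 0.0178). In N1c, Lax1, a transmembrane adaptor that inhibits receptor signalling, rose by 0.95 ± 0.13 (638 to 1234, adjusted p = 0.000252) and Ubash3b fell by 0.53 ± 0.12 (adjusted p = 0.0248). Lax1 was also the one gene of the list called in the interaction (-0.82 ± 0.19, adjusted p = 0.0488), and it fell by 1.05 ± 0.14 in N1c_RBPJdel against N1c (adjusted p = 0.000126), beside Itpr2 (-0.63 ± 0.11, 0.00258), Pag1 (-0.997 ± 0.208, 0.00717) and Cbl (-0.57 ± 0.12, 0.00798). None of the 73 was called in RBPJdel against control or in N1c_RBPJdel against RBPJdel, where 0.111% and 2.29% of all genes were. An unadjusted p below 0.05 was found for 8 and 17 of the 73, and for 6.74% and 21.2% of all genes.

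Genes that the receptor induces were counted from a list of 20, all measured. In N1c, Myc fell by 0.54 ± 0.13 (limma adjusted p = 0.0496) and no other was called on the deposited scale, where 1.65% of all genes were. After quantile normalization 1 was called higher and 2 lower (1.01% and 0.744% of all genes). In N1c_RBPJdel 0 of 20 were called against control, where 8.9% of all genes were. An unadjusted p below 0.05 was found for 6 of 20 (26.4% of all genes), and 2 were called higher after quantile normalization (2.72% of all genes). Against N1c, 3 rose and 2 fell, where 4.58% of all genes were called higher and 4.65% lower. Among them were Tnfrsf4 (0.48 ± 0.09, limma adjusted p = 0.00357), Tnfrsf18 (0.52 ± 0.13, 0.0159) and Cd200 (0.46 ± 0.12, 0.0245), surface proteins of activated T cells, and the transcription factor Bhlhe40 (-1.01 ± 0.23, 0.0135). The median of the list was -0.06 against control and -0.13 against N1c on the deposited scale, and 0.04 and -0.02 after quantile normalization. Against RBPJdel it was 0.21, and 0.32 after quantile normalization. There 0 of 20 were called on the deposited scale, and 2 were called higher after quantile normalization (1.15% of all genes).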

How the data were processed

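RNA of splenic Treg from 4 genotype groups was hybridised to 15 Affymetrix Mouse Gene 1.0 ST arrays. The authors deposited intensity values per transcript cluster, which the submitters' processing notes credit to RMA and Affymetrix Power Tools, with versions and annotation not given in the sources used. These linear values were converted to log2. Of 24922 features, 21425 named 1 gene, 1399 several and 2098 none. Those naming 1 gene were used, and the brightest feature was kept for 921 genes with more than 1, which left 19752 genes with no filter on intensity. limma 3.58.1 (R 4.3.3) estimated 1 mean for each group from the 15 arrays together (11 residual and 6.15 prior degrees of freedom). The test is two-sided, adjusted by Benjamini-Hochberg within each of 6 comparisons, and was tested on simulated data. The number of arrays limits the precision, and p-values reflect only how far arrays of pooled cells differ. The members and lists were chosen with earlier results of these data known. The named genes are all measured members, Rbpj, Notch1 and Foxp3, and, from the other 2 lists, up to 4 with the smallest p among those called per comparison. The replicate number was checked as a pairing. Deviations from group means correlated at 0.417, 0.341 and 0.497 for numbers 2, 4 and 5 of N1c and control, which meets the rule for a pairing. They correlated at -0.12 to 0.237 for N1c_RBPJdel with any other group, which does not. The range was 0.0711 to 0.417 for RBPJdel and control and 0.0815 to 0.457 for N1c and RBPJdel, with number 4 the highest in both. A block on the number in N1c and control changed no call of a member there. Alternatives covered normalization, the feature and intensity filters, the groups fitted, array weights, an intensity trend, the replicate block and leaving out each array. Leaving out both arrays numbered 5, N1c_RBPJdel array 2 alone, and the block in N1c and control only were not planned and were added after seeing the data.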

Additional observations from a re-analysis of the deposited data

Results flagged for a closer look

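In groups of 4 arrays, 96 sets of member values were examined for 1 array whose gap to the nearest other, over the group's range, passed Dixon's 95% value, which chance gives in about 5% of groups, and 6 were found. Of these, 5 were control array 5. Lcp2 was highest there at 4576, with the nearest control array at 3956. It held the lowest value of Vav1 (961, nearest 1297), Plcg1 (900.0, nearest 1183), Csk (845, nearest 1425) and Dgkz (936, nearest 1224). The sixth was Themis on N1c array 1, the highest at 1093 with the nearest N1c array at 930.0. The cause was not tested.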

How the results depend on the processing

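Of 192 pairs of a member and a comparison, 53 were called in at least 1 setting. Of their 1322 values under the alternatives, 1129 kept their direction and side of the threshold, 110 lost and 81 gained the call, and 2 changed sign, both with N1c_RBPJdel array 2 alone for its group: Csk against control (0.10) and Nfatc2 against RBPJdel (0.047). Of the 139 pairs called in no setting, 67 changed sign in at least 1 alternative. The number of members called in N1c_RBPJdel against control, 9 as reported, was 2 with quantile normalization, 2 with cyclic loess, 2 with only the groups compared and 1 with array 2 alone, and 2 to 12 when 1 array was left out (2 without N1c_RBPJdel 1, and 3 without control 2, 3 or 4). Against N1c, 7 as reported, it was 12 without both arrays numbered 5, 2 with array 2 alone and 5 to 13 when 1 array was left out (13 without N1c_RBPJdel 2). Against RBPJdel, 1 as reported, it was 0 with quantile normalization, cyclic loess, only the groups compared or array 2 alone, 5 without both arrays numbered 5, and 0 to 8 when 1 array was left out: 8 without N1c_RBPJdel 2, 3 without control 5, and 0 without N1c_RBPJdel 1, N1c 1, 2 or 4, RBPJdel 1, 2 or 3, or control 2, 3 or 4. The interaction called 2 with array weights and 0 to 2 when 1 array was left out. It called 2 without N1c_RBPJdel 2, beside 478 of all genes, and 1 without N1c_RBPJdel 3, beside 168. N1c against control called 2 with array weights. RBPJdel against control called 0 in all alternatives run. Of all genes, 3.06% were called lower in N1c_RBPJdel against control with quantile normalization. This share was 2.3% with cyclic loess and 1.3% with only the groups compared. When 1 array was left out it ranged from 1.38% to 8.08%. With array weights 733 of all genes were called in N1c against control and 257 in the interaction. With 1 N1c_RBPJdel array, that array is assumed to vary like the other groups.

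With the replicate number as a block over all groups, 14 members were called in N1c_RBPJdel against control, 16 against N1c, 10 against RBPJdel and 3 in the interaction. In the same order, 3767, 3699, 2107 and 632 of all genes were called. The numbers of N1c_RBPJdel were not shown to pair the arrays. The block changed no call of a member in N1c or RBPJdel against control. Of all genes it called 494 and 23 there, against 326 and 22 without it. The causes were not tested.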
